A study of Homo sapiens with 2 samples.

Results

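The miRNAs of the imprinted DLK1-DIO3 domain at 14q32 were examined in small RNA libraries of MDA-MB-231-IV2-1 breast cancer cells with and without knockdown of the long non-coding RNA LOC550643. A miRNA was counted as a member when its name carried 1 of 44 stem numbers of this locus, from miR-770 to miR-656, with any arm. Of the 425 miRNAs listed in either library, 9 were members, and the other 35 stems were not listed. The stems miR-342 and miR-345, which lie on the same chromosome before DLK1, were kept apart as flanks. Summed over the 9 members, the cluster level was 1.71-fold higher in knockdown cells (1.44 to 2.04 by counting error, 1 library per condition), and most of it came from miR-127-3p, miR-379-5p and miR-381-3p.

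MDA-MB-231-IV2-1 cells derive from MDA-MB-231, a human breast cancer line of the triple-negative type, and were isolated by passage in mice as a subline of high metastatic capacity. The treatment protocol of the labels and the study's methods name IV2-1 for both libraries, the sample titles only IV2, and the cell line field only MDA-MB-231. The control cells received a scrambled siRNA (N.C) and the knockdown cells the pooled siRNAs against LOC550643 (siLOC550643), and total RNA was taken from both 48 h after transfection. Each condition has 1 library of 1 subline, so the spread between replicates is unknown and no p-value is given. Markers of the line and the level of LOC550643 are not among mature miRNAs and were not analysed here.

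Genomic imprinting restricts the expression of a gene to the chromosome inherited from 1 parent. In the DLK1-DIO3 domain the protein-coding genes DLK1, RTL1 and DIO3 are expressed from the paternal chromosome, and the non-coding RNAs MEG3, MEG8 and MEG9 and the miRNAs from the maternal chromosome. The maternal miRNAs are thought to be cut from long transcripts that run through the domain, and they are known for high levels in brain, placenta and embryonic tissues and for low levels in many tumours. A miRNA hairpin yields a 5p and a 3p arm, and the mature arm recognises targets mainly through its seed, here taken as bases 2 to 8.

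The mature sequences of the members listed with an arm are given below from the RefSeq table of GRCh38.p14, written 5′ to 3′ with the seed in capitals, because the seed decides which members could share targets. The first 4 were listed in both libraries, and the last 3 only in the control, with 1 or 2 reads each.
miR-127-3p: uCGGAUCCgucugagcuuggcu
miR-379-5p: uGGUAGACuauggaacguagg
miR-381-3p: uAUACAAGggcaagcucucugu
miR-409-3p: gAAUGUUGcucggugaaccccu
miR-382-3p: aAUCAUUCacggacaacacuu
miR-154-5p: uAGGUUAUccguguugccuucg
miR-431-3p: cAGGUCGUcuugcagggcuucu
The 7 sequences carry 7 distinct seeds. In order along the plus strand of chromosome 14, miR-431-3p lies at chr14:100881069-100881090, miR-127-3p at chr14:100883035-100883056, miR-379-5p at chr14:101022071-101022091 and miR-381-3p at chr14:101045968-101045989. Further on, miR-382-3p lies at chr14:101054352-101054372, miR-154-5p at chr14:101059769-101059790 and miR-409-3p at chr14:101065346-101065367. The 2 remaining members, miR-134 and miR-370, are listed without an arm. The median GC content of the 7 sequences was 50%, the same as that of the 350 listed miRNAs with a RefSeq sequence.

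Outside the list, 2 mature miRNAs of the same locus show how close the sequences come, and neither was listed in either library.
miR-300: uAUACAAGggcagacucucucu
miR-411-5p: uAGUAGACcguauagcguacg
The seed of miR-300 is that of miR-381-3p, and the 2 sequences share their first 12 bases and differ at 3 of 22 positions (A13G, G14A and G21C, with the base of miR-381-3p first and positions counted from the 5′ end). The sequence of miR-411-5p differs from that of miR-379-5p at 7 of 21 positions, of which G2A falls in the seed. Reads of miR-300 and miR-381-3p therefore differ only beyond base 12.

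The values were RPM, the reads of a miRNA scaled to a fixed library total, and they were not divided by length; the mature sequences above are 21 or 22 bases long. The low values of each library lay on a ladder whose step was worth 1 read, 5.29 RPM for the control and 2.03 RPM for the knockdown, which placed the reads on miRNAs at about 189034 and 491541. The knockdown library was thus 2.60 times deeper. All 9 member values of control cells and all 6 of knockdown cells corresponded to whole reads to within 0.1 read. For a miRNA that is not listed, the limit used here is 3 reads, which is 15.9 RPM in control cells and 6.10 RPM in knockdown cells; the 2-sided interval of 0 reads used for single values is wider and reaches 7.50 RPM in knockdown cells. Intervals below are exact 95% intervals computed from the read numbers. They cover only the error of counting, since reads amplified by PCR without molecular identifiers are not independent molecules. The RNA came from whole cultures, so a higher level per cell and a larger share of cells with the miRNA cannot be told apart.

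In the GENCODE 29 annotation of GRCh38, the 46 hairpins of the 44 stems all lie on the plus strand and span 214 kb, from 100852390 to 101066801 of chromosome 14. The first hairpin, that of miR-770, overlaps an exon of MEG3 and was not listed. Of the 8 stems of the group around RTL1, 2 were listed, miR-127 and miR-431, whose hairpins lie antisense to an exon of RTL1. The hairpin of miR-370, in an intron of MEG8, stands alone 132 kb after the start of MEG3 and was listed. Of the 34 stems of the group from miR-379 to miR-656, 6 were listed: miR-379 in an intron of MEG8, miR-381 in an intron of MIR381HG, miR-409 in an intron of MEG9, and miR-382, miR-134 and miR-154 outside the named host genes. Listed members were thus spread over the domain, from 102 kb to 286 kb after the start of MEG3, and the highest levels were found at miR-127, miR-379 and miR-381.

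**Figure D1:**
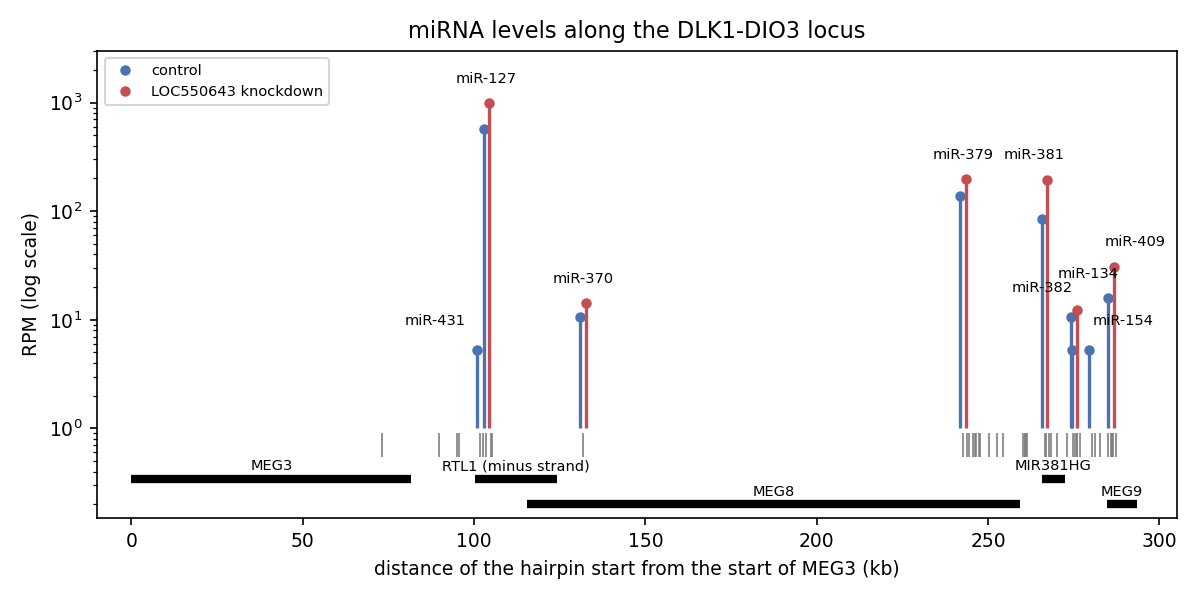
Levels of the listed members by hairpin position. The x axis gives the distance of the hairpin start from the start of MEG3 in kb, the y axis RPM on a log scale. Blue and red points with stems are the control and knockdown libraries, drawn slightly apart, and grey ticks are all 46 hairpins. Black bars are genes of the locus, of which RTL1 lies on the minus strand, opposite the hairpins. The 3 tallest pairs are miR-127, miR-379 and miR-381, and the red point lies above the blue one at each of them.

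The most abundant member in both libraries was miR-127-3p, whose hairpin lies antisense to RTL1 and whose sequence is by its position complementary to the RTL1 transcript. It was listed at 566 RPM in control cells (107 reads, 464 to 684 RPM) and at 991 RPM in knockdown cells (487 reads, 905 to 1083 RPM). The level was higher in knockdown cells and the intervals did not overlap. On the log2(RPM + 1) scale, used for the fold changes of single miRNAs below and understating those of low values, the difference was 0.81 (0.50 to 1.12). The intervals of fold changes come from the read numbers without the added 1. Log2 ratios of sums and of values set to the 3-read limit also have no added 1. Its place among the listed miRNAs moved from 65 to 52.
The hairpin of miR-127 is printed here from the same RefSeq table (chr14:100882979-100883075, plus strand), with the listed 3p arm in capitals at bases 57 to 78, because no read of its other arm was listed.
MIR127: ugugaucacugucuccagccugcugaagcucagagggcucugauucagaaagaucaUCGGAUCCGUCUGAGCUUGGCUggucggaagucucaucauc
The 5p arm, at bases 23 to 44, was listed in neither library. A count of 0 allows it up to 2.80% of the reads of the 3p arm in control cells and up to 0.616% in knockdown cells.
The other member of the RTL1 group, miR-431-3p, was listed at 5.29 RPM in control cells, which is 1 read (0.134 to 29.5 RPM), and not in knockdown cells. At this depth no difference was detectable for it.

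The hairpin of miR-379 is the first of the large group that carries its name. Its 5p arm was listed at 138 RPM in control cells (26 reads, 89.8 to 202 RPM) and at 197 RPM in knockdown cells (97 reads, 160.0 to 241 RPM). The value was higher in knockdown cells, but the intervals overlapped, and the log2 fold change of 0.52 had an interval that included 0 (-0.12 to 1.20).
The hairpin (chr14:101022066-101022132, plus strand) is given with the listed 5p arm in capitals at bases 6 to 26.
MIR379: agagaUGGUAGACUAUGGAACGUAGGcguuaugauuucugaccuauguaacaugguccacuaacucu
The 3p arm, at bases 44 to 65, was listed in neither library, which allows it up to 11.5% of the reads of the 5p arm in control cells and up to 3.09% in knockdown cells.

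The member with the highest fold change among those above 3 reads in both libraries was miR-381-3p. Its level was 84.6 RPM in control cells (16 reads, 48.4 to 137 RPM) and 193 RPM in knockdown cells (95 reads, 156 to 236 RPM). The intervals did not overlap, and the log2 fold change was 1.18 (0.42 to 2.06). In the control library it stood below miR-379-5p with overlapping intervals, and in knockdown cells both were near the same level. Of the reads of these 2 miRNAs, miR-381-3p held 38.1% in control cells (23.6% to 54.4%) and 49.5% in knockdown cells (42.2% to 56.8%), so that a shift between them was not detectable at this depth. The 5p arm of miR-381 was not listed, which allows up to 18.8% and 3.16% of the reads of the 3p arm.

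At the far end of the group, miR-409-3p was listed at 15.9 RPM in control cells (3 reads, 3.27 to 46.4 RPM) and at 30.5 RPM in knockdown cells (15 reads, 17.1 to 50.3 RPM). The intervals overlapped and the log2 fold change was 0.90 (-0.88 to 3.37).
Of miR-370, 10.6 RPM were listed in control cells (2 reads, 1.28 to 38.2 RPM) and 14.2 RPM in knockdown cells (7 reads, 5.73 to 29.3 RPM), which gave a log2 fold change of 0.40 (-1.96 to 3.73).
For miR-134, known in neurons as a regulator of dendritic spine size, 5.29 RPM were listed in control cells (1 read, 0.134 to 29.5 RPM) and 12.2 RPM in knockdown cells (6 reads, 4.48 to 26.6 RPM). Its log2 fold change of 1.07 had an interval of -1.84 to 6.73. When control values at or under 3 reads were set to the 3-read limit, the log2 ratios of miR-370 and miR-134 were below 0, at -0.16 and -0.38, while that of miR-409-3p was 0.94. No direction can be read for miR-370 and miR-134.
The remaining members of this group, miR-382-3p with 2 reads (10.6 RPM) and miR-154-5p with 1 read (5.29 RPM), were listed in control cells only. Both libraries were at or under 3 reads for them, and no fold is given.

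**Figure D2:**
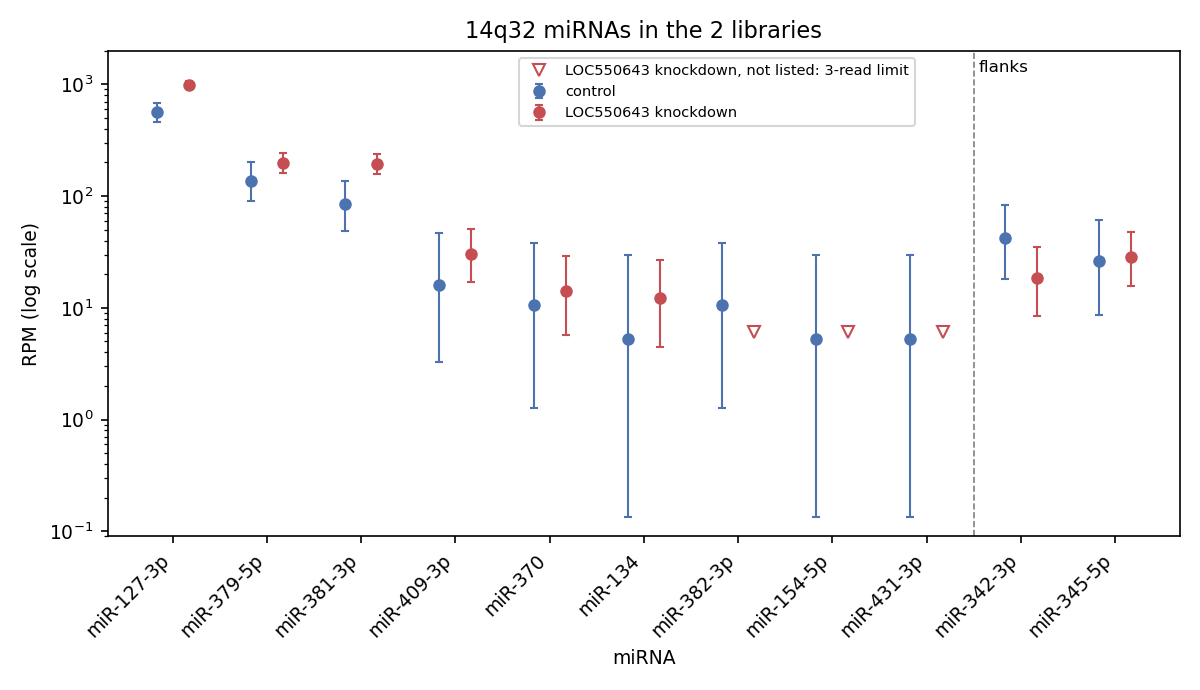
Level of each member and flank in the 2 libraries. The y axis gives RPM on a log scale; blue and red points are the control and knockdown libraries (1 library each), bars are 95% counting intervals, and open triangles mark the 3-read limit of 6.10 RPM for members not listed in knockdown cells. The intervals are apart for miR-127-3p and miR-381-3p and overlap or include the 3-read limit for every other miRNA shown.

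Over the 9 members, 6 were listed in both libraries, 3 in control cells only and none in knockdown cells only. Among all listed miRNAs, 50 of 425 (11.8%) were in control cells only and 49 (11.5%) in knockdown cells only. Each of the 6 members listed in both had the higher value in knockdown cells, beside 40.2% of the 326 miRNAs listed in both. The log2 fold changes of these 6 ran from 0.40 to 1.18 with a median of 0.85, beside a median of -0.20 over the 326. Of the 6, miR-134, miR-370 and miR-409-3p had at most 3 control reads. With values at or under 3 reads set to the 3-read limit, 4 of the 6 were higher and 2 lower (miR-134 and miR-370). Over all 276 miRNAs compared in this way, 103 were higher and 173 lower. At a mean of at least 100 RPM there were 3 members, miR-127-3p, miR-379-5p and miR-381-3p, all with the higher value in knockdown cells, beside 39.5% of 124 miRNAs. Of these 3, miR-381-3p was under 100 RPM in control cells (84.6 RPM) and passed this limit through its knockdown value. Its place and its count at this limit therefore depend on the library in which it is higher. Ordered by log2 fold change from the highest among these 124, miR-381-3p was at place 3, miR-127-3p at place 5 and miR-379-5p at place 13. Counting intervals that did not overlap, with the higher level in knockdown cells, were found for 2 of the 9 members (miR-127-3p and miR-381-3p), beside 4.94% of all 425 miRNAs. Since these intervals narrow with the number of reads, the same was counted at a mean of at least 100 RPM, where it held for 2 of 3 members, beside 16.1% of 124 miRNAs. In the opposite direction it held for 0 members, beside 8.47% of the 425. Only miR-127-3p, miR-379-5p and miR-381-3p could have met it. The other members had at most 3 control reads, and their control intervals began at 3.27 RPM or lower. That is under the 7.50 RPM which 0 knockdown reads allow, so these 2 shares cannot be compared.

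With the 2-fold threshold, 2 members were higher in knockdown cells (miR-134 and miR-381-3p), beside 17.9% of the 425 listed miRNAs. The 3 members listed in control cells only were called lower, beside 27.3%, and each of these calls rested on 1 or 2 reads. With values at or under 3 reads set to the limit of their library, 6 members could be compared. Of these, miR-381-3p was more than 2-fold higher and none was more than 2-fold lower. Only 3 of the 6 were above 3 reads in both libraries. The others, miR-134, miR-370 and miR-409-3p, entered through the knockdown library alone, and the filter left no room for a lower call among them. The background in that comparison was 3.99% higher and 11.2% lower of 276 miRNAs. Scaling by the median of ratios shifted the log2 ratios upwards by up to 0.20, and the 2-fold counts were then 4 higher (miR-127-3p, miR-134, miR-381-3p and miR-409-3p) and 3 lower, beside 19.5% higher and 21.2% lower of all 425. The share of calls in the higher direction thus depended on the scaling and on miRNAs with few reads.

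**Figure D3:**
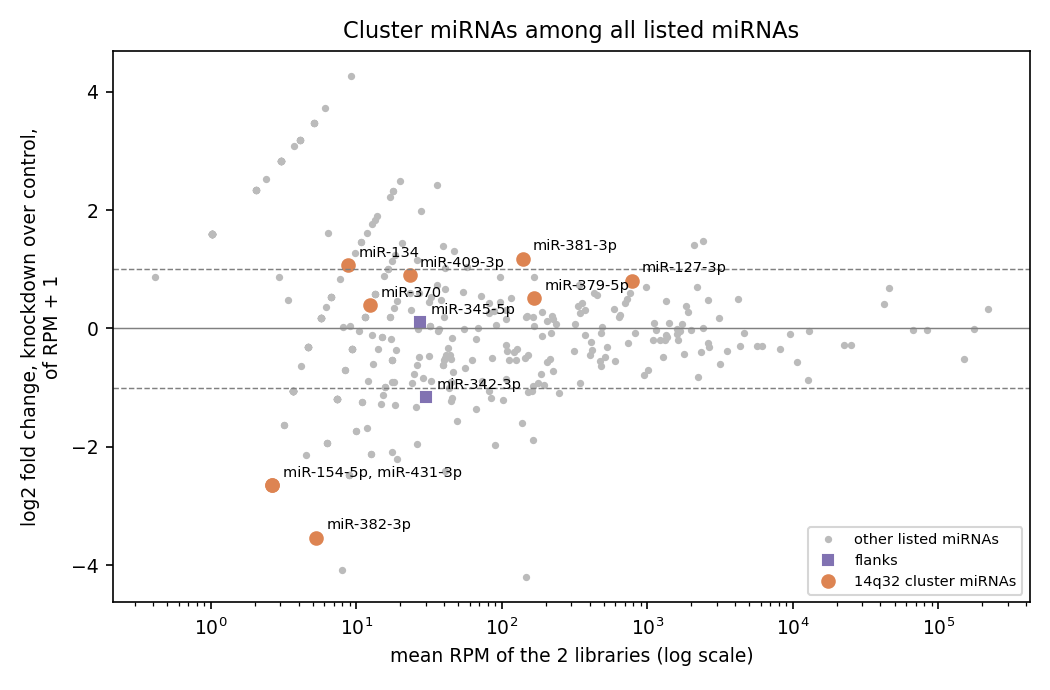
Members among all listed miRNAs. The x axis gives the mean RPM of the 2 libraries on a log scale and the y axis the log2 fold change of RPM + 1, knockdown over control; orange points are members, purple squares the flanks, grey points the other listed miRNAs, and dashed lines the 2-fold threshold. The 3 members with a mean of at least 100 RPM lie above 0, and the 3 lowest orange values (2 of them at the same place) are members with 1 or 2 control reads and no knockdown read, whose position is set by the value of 1 added before the logarithm.

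Summed over the 9 members, the cluster held 841 RPM in control cells (159 reads, 716 to 982 RPM) and 1438 RPM in knockdown cells (707 reads, 1334 to 1548 RPM). These sums are 0.0841% and 0.144% of all miRNA reads. The intervals of the sums did not overlap, and their log2 ratio was 0.77 (0.52 to 1.03), or 0.97 with scaling by the median of ratios. The 2 listed members of the RTL1 group summed to 571 RPM (469 to 690 RPM) and 991 RPM (905 to 1083 RPM), a log2 ratio of 0.79 (0.49 to 1.11). The 6 listed members from miR-379 to miR-656 summed to 259 RPM (49 reads, 192 to 343 RPM) and 433 RPM (213 reads, 377 to 496 RPM), a log2 ratio of 0.74 (0.29 to 1.22). The 2 groups lie apart on the chromosome, and their ratios lay within each other's counting interval. Without miR-127-3p the cluster sum still had a log2 ratio of 0.70 (0.26 to 1.17).

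The shares of the members within the cluster differed by less than their counting error. The share of miR-127-3p among the cluster reads was 67.3% in control cells (59.4% to 74.5%) and 68.9% in knockdown cells (65.3% to 72.3%). That of miR-379-5p was 16.4% (11% to 23.0%) and 13.7% (11.3% to 16.5%), and that of miR-381-3p 10.1% (5.86% to 15.8%) and 13.4% (11% to 16.2%). The 3 miRNAs together held 93.7% and 96.0% of the cluster reads. The other 6 members shared 10 reads in control cells and 28 in knockdown cells. All these intervals overlapped between the libraries, and these shares do not depend on the scaling between libraries.

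**Figure D4:**
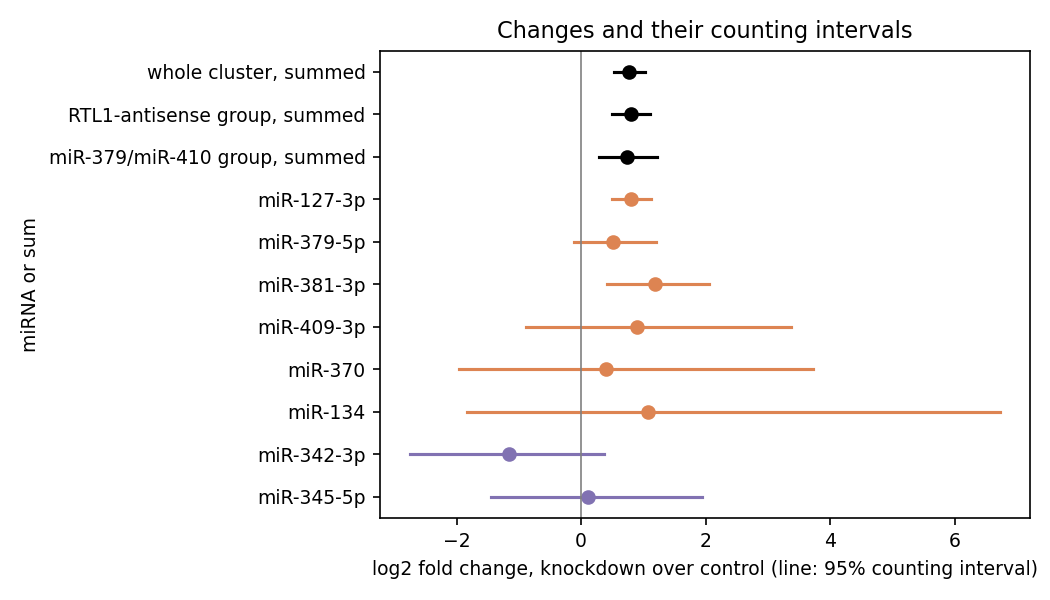
Fold changes with their counting intervals. The x axis gives the log2 fold change, knockdown over control, and lines are 95% counting intervals; black points are sums, orange points members and purple points flanks. The lines of the 3 sums, of miR-127-3p and of miR-381-3p lie to the right of 0, and those of the other miRNAs cross it.

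Each listed hairpin was represented by 1 product. The name carried the 3p arm for 5 members (miR-127, miR-381, miR-409, miR-382 and miR-431), the 5p arm for 2 (miR-379 and miR-154) and no arm for 2 (miR-134 and miR-370). The RefSeq table holds 84 mature products of the 44 stems, of which 77 were not listed under their own name. Among all names listed with an arm, both arms were listed for 87 of 235 (37.0%), with only the arm taken off the name. Names with a locus number were thus counted apart, such as miR-24-1-5p from miR-24-3p. This makes the share lower than it would be by stem. For miR-409, a count of 0 allows the other arm up to 20% of the reads of the listed product in the knockdown cells. For miR-370 and miR-134 no limit is given, since it is not known whether the reference used held another arm.

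No difference was detectable for the flanks. In the intron of EVL, miR-342-3p was listed at 42.3 RPM in control cells (8 reads, 18.3 to 83.4 RPM) and at 18.3 RPM in knockdown cells (9 reads, 8.37 to 34.8 RPM), which gave a log2 fold change of -1.17 (-2.75 to 0.37). For miR-345-5p the values were 26.5 RPM (5 reads, 8.59 to 61.7 RPM) and 28.5 RPM (14 reads, 15.6 to 47.8 RPM), which gave a log2 fold change of 0.10 (-1.45 to 1.93). Both intervals included 0. The summed flanks had a log2 ratio of -0.56 (-1.60 to 0.55), and the upper end of this interval overlaps the interval of the cluster sum (0.52 to 1.03).

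The study asked which miRNAs can pair with LOC550643. It used TargetScan, small RNA profiles and miRNA levels in breast cancer and normal tissues. Real-time PCR after LOC550643 overexpression and knockdown and a luciferase reporter with an intact or mutated site followed. It settled on miR-125b-2-3p, which is not a member. Here the 3 LOC550643 isoforms of its supplement (V1 to V3) were searched only for the reverse complement of the listed members' seeds. The stem miR-494, whose 3p arm the study's discussion cites for pancreatic cancer, was not listed and was not searched. For miR-379-5p the 6-base match TCTACC (to bases 2 to 7) lies at bases 236 to 241 of V1 and of V2 and is not in V3. For miR-381-3p the match TTGTAT is in all 3 isoforms, in V1 from base 664 to 669, in V2 from base 527 to 532 and in V3 from base 422 to 427. No 6-base match was found for the other 5 members with a sequence, miR-127-3p among them. Members with a match were thus 2 of 7 (28.6%), beside 58 of 350 listed miRNAs (16.6%). A 7-base match (to bases 2 to 8) was found for 0 of 7 members and for 21 of 350 listed miRNAs (6%). The flank miR-342-3p has the match TGTGAG in all 3 isoforms, in V1 from base 606 to 611, in V2 from base 469 to 474 and in V3 from base 364 to 369. A match of these letters is a description and not a binding site.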

How the data were processed

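Total RNA was extracted with TRIZOL and small RNA libraries were sequenced (NEBNext small RNA kit and MiSeq in the study's methods; the sample protocols also carry a text on DNA libraries and HiSeq). RPM values per mature miRNA were deposited, made by the authors with a tool of their own; their processing notes name FastQC, cutadapt and hg38, and the miRNA reference release is not given in the sources used here. Values were rescaled to a common total per library, a miRNA not listed counted as 0, and the knockdown was compared with the control on log2(RPM + 1), called beyond 2-fold. Because only 92.9% and 91.5% of the values up to 20 reads were whole reads (tolerance 0.1 read), no count test was run, and estimated reads served only for 95% Clopper-Pearson intervals and the 3-read limit. Rescaling and depth affect ratios: the control library has fewer reads, so its low values are coarser. The members with more than 3 reads in a library were described by value (the 3 others by reads), and the members and lists were chosen with earlier results of these data known. Hairpin positions come from GENCODE 29 and sequences from RefSeq, matched by name for 7 of 9 members. The ladder and the intervals were tested on simulated data of whole reads drawn independently, with the intervals computed from the drawn read numbers. Fractional values and PCR duplicates were not simulated, so the test does not cover them. Python 3.11.15, numpy 2.4.6, pandas 2.3.3, scipy 1.17.1 and matplotlib 3.10.9 were used. Other scalings, pseudocounts, thresholds and filters were tried as alternatives.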

Additional observations from a re-analysis of the deposited data

How the results depend on the processing

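The number of members more than 2-fold higher, 2 as reported, beside 17.9% of all listed miRNAs, was 4 at a 1.5-fold threshold (22.4% of all), 4 with median-of-ratios scaling (19.5%) and 4 with scaling by the 75th percentile (20%), and 1 with a pseudocount of 10 RPM (4.47%) or with values at or under 3 reads set to the 3-read limit (3.99%). The number more than 2-fold lower, 3 as reported, beside 27.3%, was 1 when 10 RPM was added (5.88%), 1 when a level of 10 RPM or more was required in either sample (17.7%), and 0 among miRNAs above 0 in both libraries (20.2%) or with the 3-read limit (11.2%); these last settings leave out or raise miRNAs with no knockdown read. The median log2 fold change was 0.52 over the 9 members, beside -0.20 over all listed miRNAs. Scaling moved both medians, to 0.72 beside -0.0019 with median of ratios and to 0.81 beside 0.093 with the 75th percentile. Among miRNAs above 0 in both libraries the median was 0.85 for members, beside -0.20. When 10 RPM or more was required in either sample it was 0.81, beside -0.16. With the flanks counted as members it was 0.40. The log2 ratio of the cluster sum, 0.77, was 1.07 with the 75th percentile and lay within its counting interval in the other settings run, including without miR-127-3p (0.70). The 24 values of 8 single miRNAs under other pseudocounts and median-of-ratios scaling kept their sign and stayed within their counting intervals. With a 7-base seed match the number of members that match LOC550643 was 0 in place of 2. No paired analysis was possible because there is 1 library for each condition. Depth limits the 6 members other than miR-127-3p, miR-379-5p and miR-381-3p, none of them above 3 reads in control cells.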

Other observations

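Of 37 stems of the imprinted chromosome 19 cluster, known for its expression in placenta, 2 were listed. They were miR-1283, with 1 read in control cells (5.30 RPM) and 3 in knockdown cells (6.10 RPM), and miR-519a-5p, with 1 read in each (5.29 and 2.03 RPM). Of 5 stems of other imprinted loci, 3 were listed. For miR-296-3p, of the GNAS domain, the value was 5.29 RPM in control cells (1 read, 0.134 to 29.5 RPM) and 22.4 RPM in knockdown cells (11 reads, 11.2 to 40.0 RPM), with overlapping intervals. The miRNAs miR-335-3p and miR-675-5p, of the MEST and H19 genes, had 1 read each in control cells and were not listed in knockdown cells. A further 7 stems at 14q32 that the member rule does not name, miR-300 among them, were not listed in either library.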
